A study of Mus musculus with 8 samples.

Results

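The 10 genes of serine synthesis and one-carbon metabolism analysed here were picked by symbol from the 53465 genes of a count table and compared between mesenchymal stem cells kept at 2 oxygen levels. All 10 members (Phgdh, Psat1, Psph, Shmt1, Shmt2, Mthfd1, Mthfd2, Mthfd1l, Aldh1l2 and Pck2) passed the filter on low counts, which left 14369 genes for testing. Mesenchymal stem cells (MSCs) are the stromal progenitors of bone, fat and cartilage. They came from the endosteal bone of wild-type male C57BL/6N mice aged 3-5 months and carried no engineered allele. Before sorting, all cells grew out of bone pieces at 2% oxygen. They were sorted as CD45-, Ter-119-, Sca-1+ and CD140a+ and split between the oxygen levels. Culture then went on for a further week in control α-MEM at 5% CO2 and 37 °C. The hypoxia group was held at 2% oxygen (n = 4) and the normoxia group was moved to 21% oxygen (n = 4). Oxygen, with that move, was the single difference between them. The study calls the replicates biologically independent, and the sources used here do not give how many animals each sample holds.

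Serine is made from the glycolytic intermediate 3-phosphoglycerate in consecutive steps by the enzymes of Phgdh, Psat1 and Psph. Serine hydroxymethyltransferases then split serine into glycine and a one-carbon unit carried on tetrahydrofolate, in the cytosol (Shmt1) or in mitochondria (Shmt2). Mitochondria pass the unit on through Mthfd2 and Mthfd1l as formate, which the cytosolic enzyme of Mthfd1 puts back onto folate for purine, thymidylate and methyl group supply. Several of these genes, among them Phgdh, Psat1, Shmt2, Mthfd2 and Pck2, are textbook targets of ATF4, the transcription factor of the amino acid and integrated stress response.

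Of the 10 genes, Psat1, Shmt2 and Pck2 fell in normoxia and Mthfd1 rose, by limma-trend on log2 CPM (read counts scaled to a common library size) with Benjamini-Hochberg adjustment over all tested genes at 0.05. These 4 calls out of 10 stand against 34.6% of all tested genes called. The 3 lower calls stand against 16.5% of genes called lower in normoxia, and the 1 higher call against 18.0% called higher. Changes were moderate, from -0.48 (Pck2) to 0.38 (Mthfd1) on the log2 scale, and the median over the 10 genes was -0.18, beside 0.0049 over all tested genes. With library sizes alone in place of TMM factors (trimmed mean of M-values) the median over all tested genes was 0.089 and that over the 10 genes was -0.092. Samples with the same replicate number varied together across genes, so the fit was also run with replicate number as a block. The block gave 6 calls, 5 lower and 1 higher, against 46.0% of all genes called (22.7% lower and 23.3% higher).

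**Figure D1:**
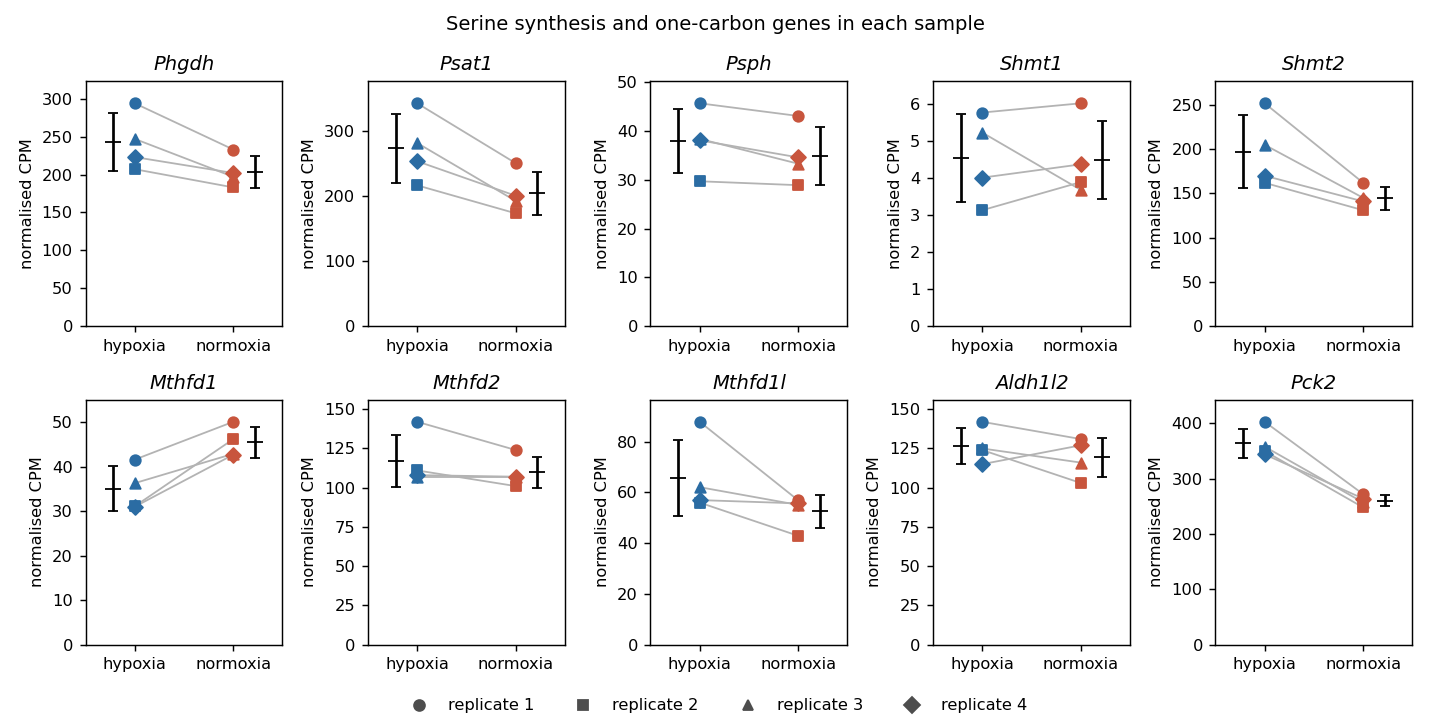
Normalised CPM (vertical axis, from 0, read counts scaled to a common library size with TMM factors) of each gene in the 4 hypoxia samples (blue) and the 4 normoxia samples (red), with grey lines joining samples of the same replicate number and black bars giving the mean ± SD. Pck2 was at 344 to 403 in hypoxia and 248 to 272 in normoxia, whereas the points of Shmt1, Mthfd2 and Aldh1l2 lie at similar heights in both groups.

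Library totals ranged from 12898291 to 25132141 counts, hypoxia replicate 1 being the deepest and the other 7 lying between 12898291 and 13433824. Of 10 genes known to respond to low oxygen 7 were lower in normoxia and none was higher. Among them Car9, which encodes carbonic anhydrase 9, fell by 2.34 (SE 0.16, adjusted p = 9.8e-06, limma-trend). All 11 mesenchymal stem cell markers were tested, among them Ly6a (Sca-1) and Pdgfra (CD140a), with 1 lower and 3 higher in normoxia (5 lower and 5 higher with the block). All 11 blood cell markers were also detected, although cells with CD45 (Ptprc) were gated out, and their summed level was 565 to 1170 CPM in hypoxia and 650 to 1240 CPM in normoxia. Much of that sum came from Lyz2, a macrophage lysozyme gene, at 261 to 436 CPM in hypoxia and 400 to 691 CPM in normoxia, which rose by 0.56 (adjusted p = 0.022, limma-trend). The median of the list was -0.32, with 2 lower (Mrc1 by 0.84 and Cd74 by 0.74) and 1 higher, and 7 lower and 1 higher with the block. Ptprc itself was at 8.28 to 16.9 CPM in hypoxia and 10.1 to 19.0 CPM in normoxia. Of 7 endothelial markers 3 (Emcn, Cldn5 and Tie1) were at 0 counts in all samples, and so were the globin genes Hba-a1 and Hbb-bs among 5 erythroid markers. The part of other cells in the values below was not tested, and in bulk samples fewer cells of a type and less RNA per cell cannot be told apart.

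The enzymes that make serine are the first group. Psat1 (ENSMUSG00000024640, chromosome 19: 15904678-15947337, minus strand, GRCm38), which encodes phosphoserine aminotransferase, was at 342, 216, 281 and 253 CPM in hypoxia replicates 1 to 4. It was at 250, 173, 192 and 200 CPM in normoxia replicates 1 to 4. Every normoxia sample was below the hypoxia sample of the same number, while normoxia replicate 1 lay above hypoxia replicate 2, so the groups overlapped. Psat1 fell in normoxia by 0.42 on the log2 scale (SE 0.13, adjusted p = 0.03, limma-trend), a decrease of 25.0%, from 8.07 ± 0.28 to 7.66 ± 0.23 log2 CPM (SD, n = 4 each). The call was close to the threshold without the block. It was lost on leaving out hypoxia replicate 1 (-0.3), hypoxia replicate 3 (-0.4), normoxia replicate 2 (-0.35), normoxia replicate 3 (-0.4) or normoxia replicate 4 (-0.42), and with library sizes alone (-0.33, adjusted p = 0.065).

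Phgdh (ENSMUSG00000053398, chromosome 3: 98313170-98339990, minus strand) encodes phosphoglycerate dehydrogenase, which commits 3-phosphoglycerate to serine. Its level was 294, 207, 247 and 223 CPM in hypoxia replicates 1 to 4 and 233, 183, 197 and 202 CPM in normoxia replicates 1 to 4. Normoxia was lower in 4 of 4 same-numbered pairs, but the groups overlapped through normoxia replicate 1. The difference was -0.24 (SE 0.1, adjusted p = 0.087, limma-trend) and did not pass without the block, whereas with it the SE was 0.051 and the adjusted p = 0.00036. On leaving out hypoxia replicate 1 the difference shrank to -0.15 (adjusted p = 0.2, limma-trend). A call appeared without hypoxia replicate 2 (-0.32, adjusted p = 0.033, limma-trend) and without normoxia replicate 1 (-0.32, adjusted p = 0.032, limma-trend). After a correction for the GC content and length of each gene's longest transcript the difference was -0.052 with an adjusted p of 0.38 in the blocked limma-trend fit. Phgdh has a GC content of 57.2%, beside a median of 49.7% over the tested genes.

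Psph (ENSMUSG00000029446, chromosome 5: 129765558-129787449, minus strand) encodes phosphoserine phosphatase, the last step to serine. It was at 45.7, 29.7, 38.4 and 38.1 CPM in hypoxia and 43.1, 28.9, 33.3 and 34.6 CPM in normoxia, replicates 1 to 4. The samples varied far more by number than by oxygen. The difference was -0.12 (SE 0.14, adjusted p = 0.55, limma-trend; 0.16 with the block), although normoxia was lower in 4 of 4 pairs. Psph shares 452 exonic bases with Cct6a on the opposite strand, which was higher in normoxia by 0.21 (adjusted p = 0.043, limma-trend), and whether counting used strand is not given in the sources used here.

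The serine hydroxymethyltransferases differed in abundance and in their values across the oxygen levels. Shmt2 (ENSMUSG00000025403, chromosome 10: 127517123-127522444, minus strand), the mitochondrial enzyme, was at 252, 162, 205 and 170 CPM in hypoxia and 162, 131, 145 and 141 CPM in normoxia, replicates 1 to 4. The lowest hypoxia sample, replicate 2, and the highest normoxia sample, replicate 1, met at 7.34 log2 CPM, and the others were apart. Shmt2 fell by 0.43 in normoxia (SE 0.12, adjusted p = 0.016, limma-trend), a decrease of 25.7%, and was lower in 4 of 4 pairs, by 0.64 in the first and by 0.27 in the fourth. The call was kept on leaving out any of the 8 samples. With the correction for GC content and length the change was -0.25, with an adjusted p of 0.16 without the block and 0.00023 with it (limma-trend), and the GC content of Shmt2 is 57.4%. Shmt2 overlaps Ndufa4l2 by 32 exonic bases on the opposite strand, and Ndufa4l2 fell by 0.88 (adjusted p = 6e-05, limma-trend).

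Shmt1 (ENSMUSG00000020534, chromosome 11: 60788104-60811718, minus strand), the cytosolic enzyme, was the least abundant of the 10, with 138, 39, 67 and 52 counts in hypoxia and 81, 54, 51 and 58 counts in normoxia. These counts correspond to 5.77, 3.13, 5.23 and 4.01 CPM in hypoxia and 6.02, 3.89, 3.68 and 4.37 CPM in normoxia, replicates 1 to 4. The ranges of the groups overlapped over most of their width, and the difference was -0.0024 (SE 0.21, adjusted p = 0.99, limma-trend). Its SE was the largest of the 10, also with the block (SE 0.16, adjusted p = 0.99). The neighbouring gene Smcr8 shares 184 exonic bases with Shmt1 on the opposite strand, had 338 to 696 counts, and was higher in normoxia by 0.39 (adjusted p = 0.002, limma-trend).

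The folate enzymes downstream carry the one-carbon unit from mitochondria to the cytosol. Mthfd1 (ENSMUSG00000021048, chromosome 12: 76255298-76319803, plus strand), the trifunctional cytosolic enzyme that joins formate to tetrahydrofolate and interconverts its derivatives, was the single member that rose. It was at 41.6, 31.1, 36.3 and 31.0 CPM in hypoxia replicates 1 to 4 and at 50.1, 46.2, 42.9 and 42.7 CPM in normoxia replicates 1 to 4. Every normoxia sample was above every hypoxia sample. Mthfd1 rose by 0.38 on the log2 scale (SE 0.098, adjusted p = 0.01, limma-trend), an increase of 30.5%, from 5.13 ± 0.2 to 5.51 ± 0.11 log2 CPM (SD, n = 4 each). The call was kept on leaving out any of the 8 samples, with changes between 0.32 and 0.47.

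Mthfd1l (ENSMUSG00000040675, chromosome 10: 3973118-4167081, plus strand) encodes the mitochondrial ligase that releases formate. It was at 87.9, 56.0, 62.1 and 57.0 CPM in hypoxia and 56.9, 42.9, 55.1 and 55.7 CPM in normoxia, replicates 1 to 4. The groups overlapped, and the pairs differed widely, from -0.63 for replicate 1 to -0.034 for replicate 4. The difference of -0.3 (SE 0.14) did not pass without the block (adjusted p = 0.1, limma-trend) and passed with it (SE 0.074, adjusted p = 0.0017). Without hypoxia replicate 1 the difference was -0.16 (adjusted p = 0.23, limma-trend).

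Mthfd2 (ENSMUSG00000005667, chromosome 6: 83305691-83325908, minus strand), the mitochondrial methylene-tetrahydrofolate dehydrogenase and cyclohydrolase, was at 142, 111, 107 and 108 CPM in hypoxia and 124, 101, 107 and 107 CPM in normoxia, replicates 1 to 4. Replicates 3 and 4 were nearly level between the oxygen levels. The difference was -0.086 (SE 0.094, adjusted p = 0.52, limma-trend; 0.21 with the block). Aldh1l2 (ENSMUSG00000020256, chromosome 10: 83487450-83534140, minus strand), whose mitochondrial product oxidises 10-formyl-tetrahydrofolate and yields NADPH, was at 142, 124, 125 and 115 CPM in hypoxia and 131, 103, 116 and 127 CPM in normoxia. Replicate 4 was higher in normoxia and the other pairs lower, and the difference was -0.087 (SE 0.085, adjusted p = 0.47, limma-trend; 0.25 with the block). When the block was combined with the correction for GC content and length, Aldh1l2 was called lower, at -0.16 (adjusted p = 0.0086, limma-trend), in a fit that called 43.3% of all tested genes. Aldh1l2 shares 1056 exonic bases with D10Wsu102e on the opposite strand, for which the difference was -0.012 (adjusted p = 0.94, limma-trend).

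Pck2 (ENSMUSG00000040618, chromosome 14: 55540266-55551242, plus strand), the mitochondrial phosphoenolpyruvate carboxykinase, which can supply the glycolytic intermediates upstream of serine, had the lowest p-value of the 10. It was at 403, 350, 358 and 344 CPM in hypoxia replicates 1 to 4 and at 272, 248, 257 and 264 CPM in normoxia replicates 1 to 4. The groups were far apart, with hypoxia from 344 and normoxia up to 272 CPM. Pck2 fell by 0.48 (SE 0.062, adjusted p = 0.00022, limma-trend), a decrease of 28.3%, from 8.5 ± 0.1 to 8.02 ± 0.057 log2 CPM (SD, n = 4 each). It was lower in 4 of 4 pairs and was called under all 20 alternatives tried, with changes between -0.51 and -0.39. By p-value it ranked 326 of 14369 genes. The cytosolic isozyme gene Pck1 had 0 counts in all 8 samples, which allows up to 0.119 to 0.233 CPM per sample at 3 counts, for counting error only.

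**Figure D2:**
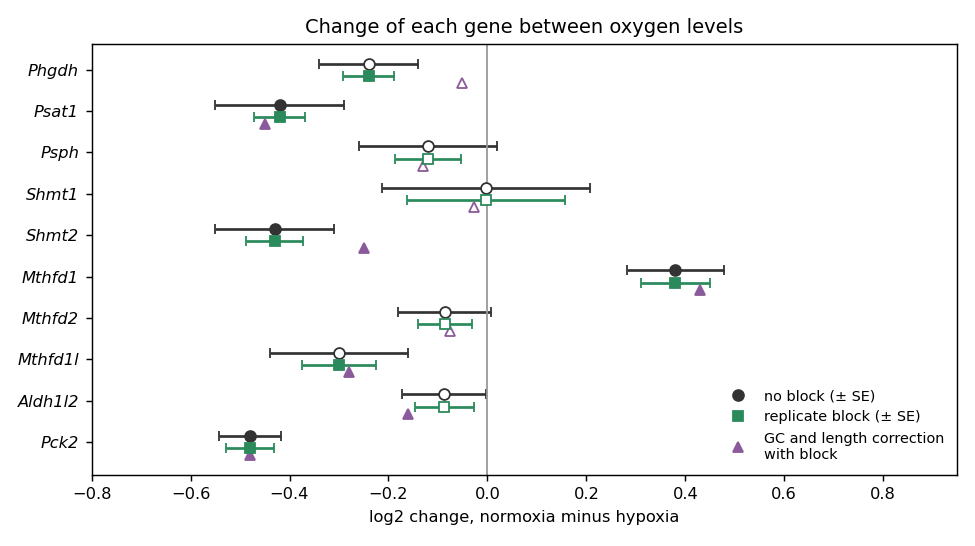
Log2 change (horizontal axis, normoxia minus hypoxia) of each gene. Dark circles are without a block and green squares with replicate number as a block. Purple triangles are with the block and a correction for GC content and transcript length. Bars are ± SE and filled symbols have an adjusted p under 0.05. Psat1, Shmt2, Mthfd1 and Pck2 are filled in all 3 fits, Phgdh only in the blocked fit without the correction, and Aldh1l2 only in the corrected one.

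Of the 10 genes, 3 had groups that did not overlap on the log2 CPM scale (Shmt2 and Pck2 lower in normoxia, Mthfd1 higher), beside 32.6% of all tested genes. For Shmt2 this rests on a very small gap, as hypoxia replicate 2 and normoxia replicate 1 both round to 7.34 log2 CPM. In 6 of the 10, normoxia was lower in 4 of 4 pairs, and in 1 (Mthfd1) it was higher in 4 of 4. The share of all tested genes with such pairs was not counted, so these counts have no background beside them. The median difference over the 10 genes was -0.26, -0.23, -0.26 and -0.087 in pairs 1 to 4.

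In all, 3 differences between a mitochondrial and a cytosolic enzyme gene were formed within each sample on the log2 CPM scale. Since the genes differ in length, only the change of a difference between oxygen levels is read, not its size. Mthfd1l minus Mthfd1 was 1.08, 0.84, 0.77 and 0.88 in hypoxia and 0.18, -0.11, 0.36 and 0.38 in normoxia, replicates 1 to 4. It was lower in every normoxia sample, by 0.69 between the means of 0.89 ± 0.13 and 0.2 ± 0.23 (SD, n = 4 each; two-sided exact permutation test, p = 0.0286). Mthfd2 minus Mthfd1 was 1.77, 1.83, 1.55 and 1.8 in hypoxia and 1.31, 1.13, 1.31 and 1.32 in normoxia. It fell by 0.47, from 1.74 ± 0.13 to 1.27 ± 0.093 (SD, n = 4 each; exact permutation test, p = 0.0286).

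Shmt2 minus Shmt1 was 5.4, 5.6, 5.24 and 5.34 in hypoxia and 4.7, 5, 5.22 and 4.95 in normoxia, replicates 1 to 4. It fell by 0.43, from 5.39 ± 0.15 to 4.97 ± 0.22 (SD, n = 4 each; exact permutation test, p = 0.0286), although hypoxia replicate 3 and normoxia replicate 3 were nearly equal. The p of 0.0286 is the smallest that 70 assignments of 8 samples can give and was the same after Benjamini-Hochberg adjustment over the 3 differences. An exact sign-flip permutation test over the 4 same-numbered pairs gave p = 0.125 for each, which is the smallest 4 pairs can give. With the GC and length correction the change of Shmt2 minus Shmt1 was -0.22 (exact permutation test, p = 0.171). Without hypoxia replicate 1, hypoxia replicate 2, hypoxia replicate 3, hypoxia replicate 4 or normoxia replicate 1 its p adjusted over the 3 differences was 0.0571 (exact permutation test, changes of -0.42, -0.36, -0.48, -0.44 and -0.34), and so was that of Mthfd2 minus Mthfd1 without normoxia replicate 2 (-0.42). The differences that involve Mthfd1 share that gene, which rose, while Mthfd2 and Mthfd1l did not pass the test without the block.

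**Figure D3:**
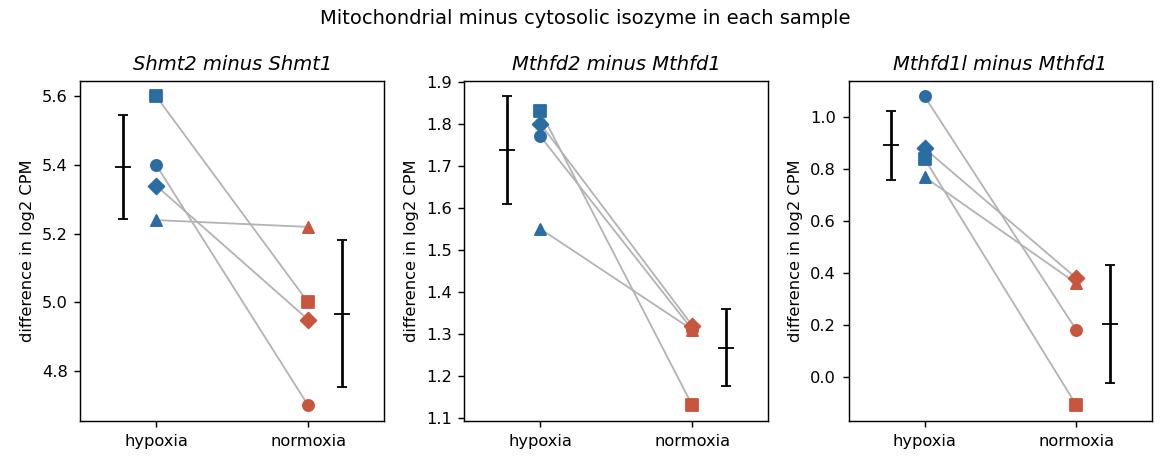
Difference in log2 CPM (vertical axes, not starting at 0) between the mitochondrial and the cytosolic gene in each hypoxia (blue) and normoxia (red) sample, with grey lines joining same-numbered samples and black bars giving the mean ± SD. Every normoxia sample is below every hypoxia sample in all 3 panels, with a change of -0.69 for Mthfd1l minus Mthfd1.

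The order of levels was compared per kilobase of exon. In hypoxia Phgdh was highest at 97.6 ± 15.2 CPM per kb (SD, n = 4), above Psat1 at 64.2 ± 12.4 and Shmt2 at 63.4 ± 13.1, and the last 2 did not differ beyond their spread. Pck2 (46.6 ± 3.42), Mthfd2 (33.6 ± 4.82), Aldh1l2 (16.8 ± 1.49) and Mthfd1l (14.8 ± 3.38) followed, of which the last 2 overlapped. Psph (8.77 ± 1.51) and Mthfd1 (7.88 ± 1.14) overlapped, and Shmt1 was lowest at 1.17 ± 0.307. In normoxia the order was the same except that Mthfd1 (10.2 ± 0.778) stood above Psph (8.08 ± 1.38), and both the pair Psph and Mthfd1 and the pair Mthfd1l and Mthfd1 overlapped. Pck2 (33.3 ± 1.31) overlapped with Mthfd2 (31.5 ± 2.82) in normoxia, which it had not in hypoxia.

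The 10 genes also varied with replicate number. Replicate 1 had the highest log2 CPM in both groups for 10 of 10 members, a pattern that 15.7% of all tested genes had. Replicate 2 had the lowest in both groups for 5 of 10, beside 9.72% of all tested genes. Replicate number took a median of 53.1% of the sum of squares of the members' log2 CPM and oxygen 34.4%, whereas over all tested genes the medians were 31.6% and 38.6%. Having more levels than oxygen, replicate number takes a larger share by design where neither has an effect. Each share is therefore read beside that of all tested genes. Genes differed in their shares. Pck2 had 91.8% of its sum of squares between oxygen levels and 6.42% between replicate numbers, while Psph had 6.97% and 91.0%.

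**Figure D4:**
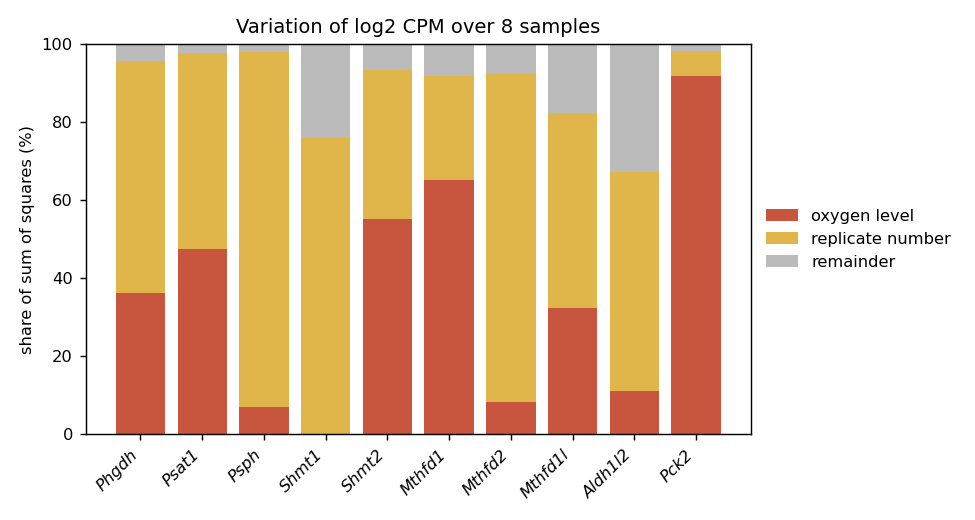
Share of the sum of squares of log2 CPM over the 8 samples (vertical axis, %) that lay between oxygen levels (red), between replicate numbers (yellow) and in the remainder (grey) for each gene. The oxygen share was 91.8% for Pck2 and 65.2% for Mthfd1, and under 1% for Shmt1.

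The summed level of the 10 genes was 1750, 1290, 1460 and 1340 CPM in hypoxia replicates 1 to 4 and 1330, 1060, 1150 and 1180 CPM in normoxia. The summed level of 17 cell cycle genes was 899, 525, 673 and 594 CPM in hypoxia and 936, 616, 723 and 707 CPM in normoxia. Both sums were highest in replicate 1 and lowest in replicate 2 in each group, and replicate 1 was highest in both groups for 15 of the 17 cell cycle genes. Between oxygen levels the members' sum was lower in normoxia in 4 of 4 pairs, while the cell cycle sum was higher in 4 of 4. Of the cell cycle genes none fell and 2 rose in normoxia, Ccne1 by 0.58 (adjusted p = 0.0057) and Rrm2 by 0.63 (adjusted p = 0.04), with a list median of -0.014 (limma-trend); the block gave none lower and 4 higher. The blood cell markers were lowest in replicate 1 and highest in replicate 3 in each group. The part of growth state or of blood cells in the members' replicate pattern was not tested.

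The 9 lists of genes around the pathway hold 101 other genes, of which 89 were tested, and 36 were called, 27 lower and 9 higher in normoxia (51 with the block, 34 lower and 17 higher). Over all tested genes 34.6% were called (16.5% lower and 18.0% higher), and 46.0% with the block (22.7% lower and 23.3% higher). Without the block, the 36 calls among the 89 tested genes, lower and higher added, were near the background of 34.6%. The counts by direction were not. The 27 lower calls were a larger share of the 89 than the 16.5% called lower over all tested genes. The 9 higher calls were a smaller share than the 18.0% called higher. In both fits lower calls outnumbered higher calls in the lists, but not over all tested genes. That contrast was not tested. With library sizes alone 25 genes of the lists were lower and 20 higher, in a fit that called 1575 of all 14369 tested genes lower and 3611 higher. Carriers of folate and serine were the list with 7 of 12 tested genes lower and none higher, with a median of -0.24, beside 16.5% of all tested genes lower. The neutral amino acid transporter gene Slc1a5 was at 196 to 226 CPM in hypoxia and 107 to 126 CPM in normoxia and fell by 0.84 (adjusted p = 3.6e-05, limma-trend). The glycine transporter gene Slc6a9 fell by 0.75 (adjusted p = 9.9e-05) and the reduced folate carrier gene Slc19a1 by 0.55 (adjusted p = 0.00015, limma-trend).

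ATF4 and 18 of its known targets gave 9 lower and none higher of 19 tested, with a median of -0.23. Over all tested genes 16.5% were lower and 18.0% higher. In this list the block gave 10 lower and 2 higher, and the blocked and GC-corrected fit 10 lower and 4 higher. Slc7a5, which encodes a large neutral amino acid transporter, fell by 1.01 (adjusted p = 1.7e-05), Trib3, a pseudokinase gene of the stress response, by 0.68 (adjusted p = 2.7e-05) and the transcription factor gene Atf5 by 0.6 (adjusted p = 3.6e-05, limma-trend). The mRNA of Atf4 itself was at 253, 211, 220 and 224 CPM in hypoxia and 238, 235, 251 and 243 CPM in normoxia, replicates 1 to 4. It overlapped between the groups, with a difference of 0.093 (SE 0.063, adjusted p = 0.28, limma-trend; 0.16 with the block), and was called higher, at 0.25, in the blocked and GC-corrected fit (adjusted p = 9.5e-05).

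Among 6 other regulators 2 were lower and 3 higher. The antioxidant regulator gene Nfe2l2 rose by 0.59 (adjusted p = 0.00011), the histone demethylase gene Kdm4c by 0.65 (adjusted p = 0.00039) and Hif1a, which encodes the oxygen-regulated subunit of hypoxia-inducible factor 1, by 0.48 (adjusted p = 0.0005, limma-trend). Myc, a growth-promoting transcription factor gene, was at 25.0 to 42.5 CPM in hypoxia and 32.4 to 39.7 CPM in normoxia, a difference of 0.15 (SE 0.13, adjusted p = 0.43, limma-trend).

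**Figure D5:**
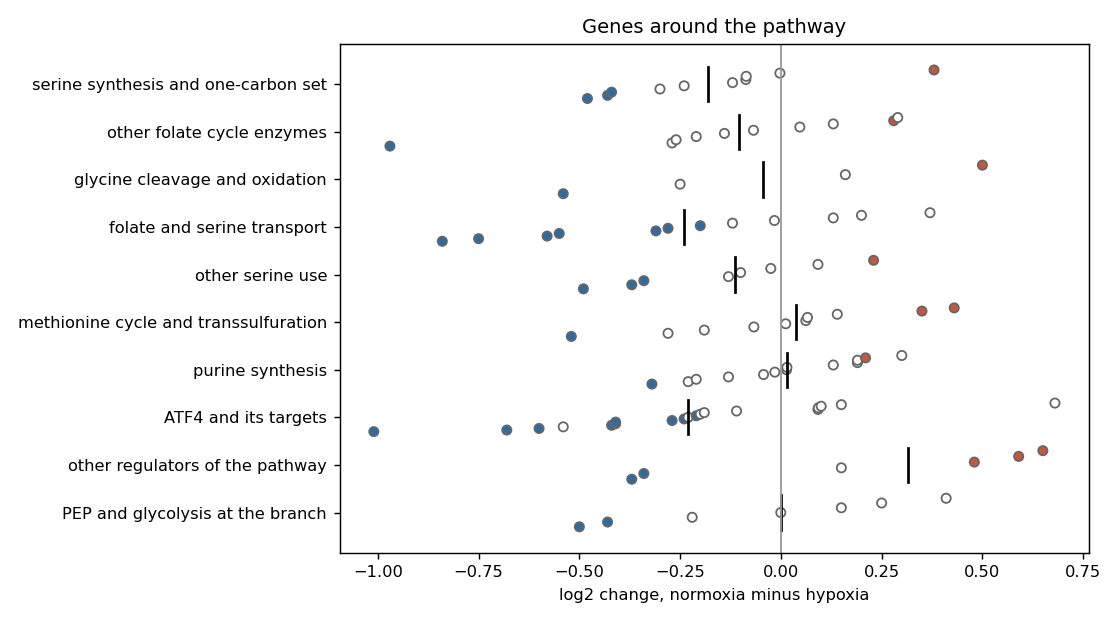
Log2 change (horizontal axis, normoxia minus hypoxia) of each tested gene in the set of 10 and in the 9 lists around it, with filled blue points for genes called lower, filled red points for genes called higher, open points for genes not called and a black bar at each list's median. The transport list has a median of -0.24 and the ATF4 list one of -0.23, both with no red point.

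Of 10 other folate cycle enzymes 1 was lower and 1 higher, with a median of -0.1. Aldh1l1, the cytosolic counterpart of Aldh1l2, fell by 0.97 (SE 0.14, adjusted p = 0.00035, limma-trend), from 13.9 to 16.8 CPM in hypoxia to 6.41 to 9.45 CPM in normoxia. Of 4 tested genes of glycine cleavage and methyl-glycine oxidation, Sardh (sarcosine dehydrogenase) fell by 0.54 (adjusted p = 0.00015) and Dld (dihydrolipoamide dehydrogenase) rose by 0.5 (adjusted p = 0.00024, limma-trend).

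Of 8 tested genes of other serine use 3 were lower and 1 higher. Those lower included the phosphatidylserine synthase genes Ptdss1 (-0.37, adjusted p = 0.00043) and Ptdss2 (-0.34, adjusted p = 0.0077) and the serine racemase gene Srr (-0.49, adjusted p = 0.0043, limma-trend). In the methionine cycle and transsulfuration, Ahcy (S-adenosylhomocysteine hydrolase) fell by 0.52 (adjusted p = 0.00043), and 2 of 10 tested rose, Mat2a (methionine adenosyltransferase) by 0.43 (adjusted p = 0.00085) and Mtap (methylthioadenosine phosphorylase) by 0.35 (adjusted p = 0.0041, limma-trend), the block giving 2 lower and 3 higher in this list. Of 13 purine synthesis genes Impdh2 (IMP dehydrogenase) fell by 0.32 (adjusted p = 0.0056) and Adsl (adenylosuccinate lyase) rose by 0.21 (adjusted p = 0.032, limma-trend), with a list median of 0.014 and, with the block, 3 lower and 3 higher. Of 7 tested genes of glycolysis around the branch to serine 2 fell, Eno1 (enolase) by 0.5 (adjusted p = 0.0032) and Pgk1 (phosphoglycerate kinase) by 0.43 (adjusted p = 0.0049, limma-trend), and the block gave 3 lower and 2 higher.

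Promoter windows of RefSeq (GRCm38.p6, 250 bases before to 50 after the start) were searched on both strands. The letters sought are known as binding motifs of factors linked to the pathway. Of the members 9 have a window, all except Aldh1l2. TGATGNAA, a shortened form of the composite element of ATF4 and C/EBP factors, was found in 1 member (Pck2) and in 4.51% of the 27025 genes with a window, and the longer TGATGNAAT, which contains it, in 0 members and 1.08% of genes. The antioxidant response element core TGACNNNGC was in 2 members (Phgdh and Psph) and 14.0% of genes. ACGTG, a form of the core of the hypoxia response element, was in 3 members (Psat1, Psph and Mthfd1l) and 21.8% of genes. Other forms of that core were not searched. The palindromic E-box CACGTG, which contains ACGTG, was in 0 members and 8.09% of genes. A match is a description of the letters and not of binding. The stretches below are shown 5′ to 3′ on the gene's strand, for the match nearest before the start of Pck2, which fell, and of Phgdh and Mthfd1l, which were called lower with the block, with the match in capitals.
Pck2 promoter, chr14:55540152-55540181, plus strand: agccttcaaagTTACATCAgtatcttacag
Phgdh promoter, chr3:98340003-98340032, minus strand: gcccggggagGCGGAGTCAgcagagtttaa
Mthfd1l promoter, chr10:3973024-3973053, plus strand: aaccaaaagcttCACGTccgctggcccccg
The Pck2 match starts 103 bases before the RefSeq start, that of Phgdh 53 bases and that of Mthfd1l 39 bases, each on the opposite strand to the gene. Mthfd1l has another match before its start, 246 bases away. Psat1, which also fell, has its match 4 bases after the start, in window 2 of 2, so its stretch is not shown.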

How the data were processed

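RNA of 8 samples was sequenced as single reads. The authors used zUMIs with STAR and featureCounts (Ensembl annotation, mm10/GRCm38) and deposited raw counts per gene. Strand and multimapping settings are not given in the sources used here. Genes were filtered with filterByExpr (minimum count 5), as in the study's methods, scaled with TMM factors (the study's scaling is not stated) and tested by limma-trend (limma 3.58.1, edgeR 4.0.16, R 4.3.3) on log2 CPM with a prior count of 3. The adjusted p covers all 14369 tested genes, and CPM are TMM-scaled. Exon length, GC content and positions came from the GENCODE annotation of GRCm38.

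The numbers 1 to 4 in the labels were taken to pair the samples, since deviations from the group means of same-numbered samples correlated across genes at 0.47, 0.28, 0.25 and 0.17 in pairs 1 to 4. Correlations between differently numbered samples are not given here, and the labels do not say what a number marks. The pairing was thus read from the same data that the blocked fit tests. The blocked fit is given wherever it changed a member's call or moved a list's count of calls by over 1.5 times. It is also given for some other members and lists. Alternatives were the block, edgeR's quasi-likelihood test, DESeq2 1.42.0, limma-voom, 2 other scalings, 2 other filters, another prior, a GC and length correction (splines with 5 degrees of freedom) and leaving out each sample. The scripts were tested on simulated data. These held larger changes than those of the members and no replicate or GC effect, so the test does not cover such cases.

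The members and lists were chosen with earlier results of these data known. All 10 members are named, with Pck1, Atf4 and Myc and, from each other list, up to 3 called genes of lowest adjusted p, except items that are not reported here. Marker lists are given as counts, medians or sums, and Lyz2, Ptprc, Mrc1 and Cd74 also singly.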

Additional observations from a re-analysis of the deposited data

Results flagged for a closer look

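In each group the lowest and highest samples were checked for isolation, measured as the distance to the next sample divided by the group's range. Of 26 groups of values searched, 3 were found, where chance gives about 1.3 (1 in 20 of them). Mthfd2 log2 CPM in hypoxia had a share of 0.854, with replicate 1 at 142 CPM above 107, 108 and 111 CPM in the others. Mthfd1l log2 CPM in normoxia had a share of 0.89, with replicate 2 at 42.9 CPM below 55.1, 55.7 and 56.9 CPM. Mthfd2 minus Mthfd1 in normoxia had a share of 0.914, with replicate 2 at 1.13 below 1.31, 1.31 and 1.32 on the log2 scale.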

How the results depend on the processing

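No member that was called in either fit changed direction under the 20 alternatives. Members called numbered 3 to 6, and Pck2 and Mthfd1 were called under all 20. Over all tested genes the number called ranged from 3838 of 14596 (without hypoxia replicate 3) to 6610 of 14369 (with the block). It was 4361 of 24446 where no filter was used. Library sizes alone gave a members' median of -0.092. The median ranged from -0.28 (without normoxia replicate 1) to -0.089 (without hypoxia replicate 1) on leaving out a sample. Shmt2 minus Shmt1 ranged from -0.51 to -0.34, Mthfd2 minus Mthfd1 from -0.53 to -0.42. With the replicate block (exact sign-flip permutation over 4 pairs, p = 0.125) the changes of the 3 enzyme differences were -0.43, -0.47 and -0.69 and their calls were lost, because 4 pairs cannot give a smaller p. The block changed 2 member calls, Phgdh and Mthfd1l, and no other member's. With the GC and length correction Shmt2 minus Shmt1 changed by -0.22 (exact permutation, adjusted p = 0.171). With that correction and the block the differences changed by -0.22, -0.51 and -0.72 (exact sign-flip permutation, p adjusted over the 3 differences = 0.375, 0.188 and 0.188). In that fit 56 genes of the related lists were called, 38 lower and 18 higher, beside 43.3% of all tested genes called. Why the correction moved Shmt2 minus Shmt1 was not tested. Without both samples numbered 1, an alternative chosen after seeing the data, the changes were -0.34, -0.47 and -0.62 (exact permutation, p = 0.1, the smallest that 3 against 3 allow). In that alternative 5 members were called, beside 4978 of 14470 tested genes. Shmt1 had the fewest counts of the members, 39 to 138.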
